A study of Homo sapiens with 6 samples.

Results

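The genes described here are the 4 metastasis suppressors NME1, NME4, MTSS1 and HTATIP2 and the metastasis-associated genes MTA1 and MTA2, chosen by name from a PCR array of cancer pathway genes. They are 6 of the 89 genes with values in the deposited table, and each was read on all 6 plates. The array was run to ask how messages change when CaSm (LSm1), a protein that acts in mRNA turnover, is induced in Panc-1 cells, a human pancreatic carcinoma line. RNA of 3 conditions was measured, with 2 plates each. Driver cells (replicates 2 and 3) are the tet-on driver pool, which carries the doxycycline-responsive transactivator under G418 selection but no CaSm construct, grown for 4 weeks with 1 μg/ml doxycycline. Induced cells (replicates 1 and 2) are the tet-on CaSm pool, made from part of the driver pool by adding inducible full-length CaSm under puromycin selection, with the same dose and time of doxycycline. Non-induced cells (replicates 1 and 2) are the tet-on CaSm pool grown for 4 weeks without doxycycline. All 3 share the transactivator, and each line is 1 stable pool, so a difference between pools and an effect of the construct cannot be told apart in the comparison of induced with driver cells. Doxycycline itself differs in the comparison of induced with non-induced cells. Replicate numbers follow a date-like mark on the labels, called the run here. The mark of driver replicate 3 is on no other plate, so it cannot be told apart from that plate. The labels do not say whether plates with the same mark were run together, or whether the plates came from separate cultures. The p-values therefore measure the spread between plates, which may be technical.

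Metastasis suppressors are genes whose product limits the spread of tumor cells without necessarily limiting growth of the primary tumor. NME1 (NM23-H1) and NME4 are nucleoside diphosphate kinases, and NME1 was the founding member of the class, while the product of NME4 works in mitochondria. MTSS1 encodes an adaptor that binds actin and bends membranes, and HTATIP2 encodes TIP30, a proapoptotic transcription cofactor. MTA1 and MTA2 are subunits of the NuRD complex, which removes acetyl groups from histones and remodels chromatin, and MTA1 was first found by its high level in metastatic tumor cells.

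In the RefSeq annotation of GRCh38.p14, NME1 lies on chromosome 17 from 51153559 to 51162168, NME4 on chromosome 16 from 396729 to 400754, HTATIP2 on chromosome 11 from 20363714 to 20383782, MTA1 on chromosome 14 from 105419827 to 105470729 and MTA2 on chromosome 11 from 62593214 to 62601865. Promoter windows of 300 bases, 250 of them upstream of the transcription start, were available for 5 of the 6 genes. The array also read MYC, which rose in induced against driver cells (log2 change ± standard error, 1.50 ± 0.31, limma adjusted p = 0.00488), and ETS2, which fell (log2 change −1.72 ± 0.23, adjusted p = 0.00066). MYC did not pass against non-induced cells (0.70 ± 0.31, adjusted p = 0.134), and it read higher in non-induced than in driver cells by 0.80 ± 0.31 (adjusted p = 0.162), while ETS2 fell against non-induced cells too (−1.23 ± 0.23, adjusted p = 0.00461). The windows were searched on both strands for the E-box CACGTG, which MYC family proteins bind, and for CCGGAAGT, which ETS family proteins bind. The first was in 7.26% and the second in 4.14% of 35116 promoter windows. The window of NME1 held both, the ETS letters from position −108 and the E-box from position 35, counted from the transcription start. HTATIP2 held the E-box from position −86, and 1 of 2 windows of MTA2 held the ETS letters from position −48. The windows of NME4 and MTA1 held neither. The upstream parts of the 3 windows with a match are shown because they belong to the suppressor that fell (NME1), a suppressor that read higher without passing the test (HTATIP2) and the MTA gene that read lower than in non-induced cells without passing it (MTA2), with the matched letters in capitals. The E-box of NME1 lies downstream of the start and is therefore outside the part shown. A match describes the letters of the window, and binding was not measured.
NME1, 250 bases at chr17:51153309-51153558, plus strand: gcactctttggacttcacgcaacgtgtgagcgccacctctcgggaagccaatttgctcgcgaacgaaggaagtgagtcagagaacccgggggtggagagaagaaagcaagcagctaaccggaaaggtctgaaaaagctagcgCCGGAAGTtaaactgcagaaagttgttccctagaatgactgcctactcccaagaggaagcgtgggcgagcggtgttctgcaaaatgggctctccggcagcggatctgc
HTATIP2, 250 bases at chr11:20363464-20363713, plus strand: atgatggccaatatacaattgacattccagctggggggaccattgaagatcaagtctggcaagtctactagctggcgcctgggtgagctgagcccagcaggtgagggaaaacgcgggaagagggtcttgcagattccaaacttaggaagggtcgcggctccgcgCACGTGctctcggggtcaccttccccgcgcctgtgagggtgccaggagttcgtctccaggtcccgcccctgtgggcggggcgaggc
MTA2, 250 bases at chr11:62601866-62602115, minus strand: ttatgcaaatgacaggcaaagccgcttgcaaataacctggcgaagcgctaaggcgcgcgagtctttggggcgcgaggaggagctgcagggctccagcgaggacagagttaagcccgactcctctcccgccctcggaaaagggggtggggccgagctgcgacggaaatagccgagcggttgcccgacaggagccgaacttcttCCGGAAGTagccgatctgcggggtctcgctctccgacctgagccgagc

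Levels are given as ΔCt, the threshold cycle of a gene minus the mean threshold cycle of GAPDH, HPRT1 and B2M of that plate. A higher ΔCt means less RNA, and 1 cycle stands for a 2-fold difference. The log2 fold change, written as log2 change ± its standard error, is the negative difference of mean ΔCt, so it is positive where RNA was higher in the first condition named. Adjusted p-values are those of limma, a linear model fitted over all genes. Assays differ in efficiency, so no RNA level of a gene was set against that of another, and the Ct of CDKN2A is given below only as a reference for late reads. All 6 genes had a Ct under the limit of 35 on every plate, as did 79 of the 89 genes. The mean Ct over the 6 plates was 21.4 for NME1, 21.4 for NME4, 23.0 for HTATIP2, 23.8 for MTA1 and 25.4 for MTA2. MTSS1 was read late, at a mean Ct of 32.5, and 14 of the 89 genes had a later mean. The plates of 1 condition differed by at most 0.18 cycles in ΔCt for NME1 and by up to 0.69 cycles for MTA2. The plates hold RNA of a whole pool, so less RNA per cell and fewer cells with the message cannot be told apart. LSM1, the induced gene, was not analysed here. CDKN2A, which is deleted in Panc-1 cells, was read at a Ct of 32.1 to 33.9 over the 6 plates. The lymphocyte gene GZMA had a Ct under 35 on 1 plate and the endothelial gene TEK on 2 plates, none of them from induced cells. On the induced plates, 78.9% of 76 genes read higher on replicate 1 than on replicate 2, with a median gap of 0.365 cycles. The same held for 68.4% of genes on the non-induced plates, with a median gap of 0.217 cycles. In driver cells 72.4% read higher on replicate 2 than on replicate 3, with a median gap of 0.268 cycles. Induced plates are replicates 1 and 2 and driver plates are replicates 2 and 3. A shift between runs and a difference between these 2 conditions therefore cannot be fully told apart.

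NME1 fell and MTSS1 rose in induced cells against each control, and the other 4 genes did not pass the test in any comparison under the main settings. Both comparisons use the same 2 induced plates. The calls against driver cells depended on the processing. Over alternative settings of the fit, not counting fits with a plate left out, NME1 kept its call in 5 of 12 and MTSS1 in 2 of 11. Against non-induced cells they kept it in 9 of 12 and 10 of 11. The adjusted p-value was under 0.05 for 2 of the 6 genes against driver cells, where 23.5% of 85 genes tested passed. It was 2 of 6 against non-induced cells, with 25.3% of 83 genes, and 2 of 6 against both controls averaged, with 22.4% of 85 genes. These shares of the 6 genes were near those of the whole array. The median log2 change of the 6 genes was 0.15 against driver cells and −0.08 against non-induced cells, and that of all genes tested was −0.08 and −0.21. The plates of induced and driver cells did not overlap for 3 of the 6 genes, against 54.1% of all genes tested. They did not overlap with non-induced cells for 4 of 6, against 61.4%, and with any control plate for 3 of 6, against 36.5%.

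**Figure D1:**
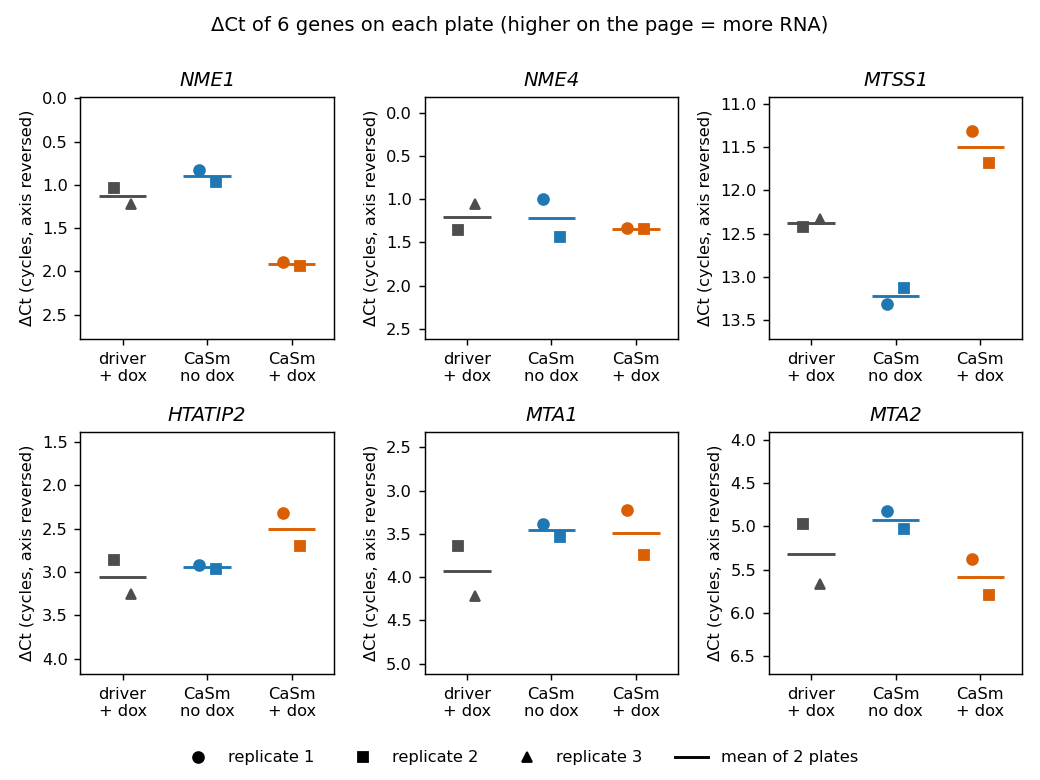
ΔCt in PCR cycles of each of the 6 genes on each plate, in driver cells with doxycycline, tet-on CaSm cells without doxycycline and tet-on CaSm cells with doxycycline, with the axis reversed so that more RNA is higher on the page. Points are plates, marked by replicate number, and lines are means of 2 plates; both induced plates lie below all 4 control plates for NME1 and above them for MTSS1 and HTATIP2.

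Of the 2 kinases, NME1 fell with CaSm induction on this array and NME4 did not pass the test. In the authors' separate real-time PCR, normalized to GAPDH, no statistical difference in NME1 was seen between the driver and CaSm lines. The ΔCt of NME1 was 1.04 and 1.22 in driver cells, 0.83 and 0.96 in non-induced cells, and 1.90 and 1.94 in induced cells. Both induced plates read lower RNA than every control plate, and the gap to the nearest control plate was larger than any gap in NME1 between plates of 1 condition. NME1 was 1.73-fold lower than in driver cells (log2 change −0.79 ± 0.23, 95% interval −1.30 to −0.28, adjusted p = 0.0374). It was 2.03-fold lower than in non-induced cells (log2 change −1.02 ± 0.23, 95% interval −1.53 to −0.51, adjusted p = 0.0115) and 1.87-fold lower than in both controls (log2 change −0.91 ± 0.20, adjusted p = 0.00729). Within the single pair of plates of run 2, the log2 change against driver cells was −0.90, and within runs 1 and 2 it was −1.07 and −0.97 against non-induced cells. The call against driver cells was lost when any 1 of the 6 plates was left out (adjusted p = 0.0554 to 0.231, log2 change −0.88 to −0.70). The call against non-induced cells was lost without non-induced replicate 1 (log2 change −0.95, adjusted p = 0.108) or replicate 2 (log2 change −1.09, adjusted p = 0.0507), and the call against both controls was kept without each plate in turn. The 2 controls did not overlap for NME1, with RNA higher in non-induced cells by a log2 change of 0.23 ± 0.23 (adjusted p = 0.605). NME1 has a close relative in NME2, and the sources used here do not give the primers, so how the assay tells them apart is not known.

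NME4 spanned 0.44 cycles over the 6 plates, the narrowest range of the 6 genes. Its ΔCt was 1.36 and 1.06 in driver cells, 1.00 and 1.43 in non-induced cells, and 1.34 and 1.35 in induced cells. The induced plates lay inside the range of both controls. The log2 change was −0.13 ± 0.25 against driver cells (95% interval −0.69 to 0.43, adjusted p = 0.710) and −0.13 against non-induced cells (95% interval −0.69 to 0.43, adjusted p = 0.778). These intervals reach from 1.62-fold lower to 1.34-fold higher against driver cells, so changes of NME4 within these bounds were not excluded by these plates.

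The difference between the kinases was also read without any normalizing gene, as Ct of NME1 minus Ct of NME4 on the same plate. It was −0.32 and 0.16 cycles in driver cells, −0.17 and −0.47 in non-induced cells, and 0.56 and 0.59 in induced cells. The RNA of NME1 relative to NME4 was lower on both induced plates than on any control plate, by 1.71-fold against both controls. With 2 plates against 4, an exact two-sided permutation test cannot go below p = 0.0667, the value found here, and with 2 against 2 it cannot go below 0.333. In all, 4 such pairs of genes were compared, and none could pass 0.05. Over all 3081 pairs of genes with a Ct under the limit on every plate, 51.8% did not overlap between the induced plates and the 4 control plates, which is the background for these pairs.

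MTSS1 rose in induced cells, and its 2 controls stood apart from each other. The ΔCt was 12.43 and 12.33 in driver cells, 13.32 and 13.12 in non-induced cells, and 11.32 and 11.69 in induced cells. No plate of 1 condition overlapped with another condition, and driver cells lay between non-induced and induced cells. MTSS1 was 1.84-fold higher than in driver cells (log2 change 0.88 ± 0.25, 95% interval 0.34 to 1.42, adjusted p = 0.029). It was 3.29-fold higher than in non-induced cells (log2 change 1.72 ± 0.25, 95% interval 1.18 to 2.26, adjusted p = 0.00104). Against both controls it was 2.46-fold higher (log2 change 1.30 ± 0.21, adjusted p = 0.00137). Within run 2 the log2 change was 0.74 against driver cells, and within runs 1 and 2 it was 2.00 and 1.44 against non-induced cells. The call against driver cells was lost without either non-induced plate (adjusted p = 0.0504), without driver replicate 2 (0.156), without driver replicate 3 (0.0901) or without induced replicate 1 (0.149), and the log2 change then lay between 0.69 and 0.93. Both other calls, against non-induced cells and against the averaged controls, were kept without each plate in turn.

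The raw Ct of MTSS1 was 32.52 and 32.56 in driver cells, 33.66 and 33.30 in non-induced cells, and 31.05 and 31.87 in induced cells. The control plates fall in the range of CDKN2A, whose gene the line lacks, and both induced plates were read earlier than any plate of CDKN2A. The control reads of MTSS1 were thus not shown to be above the level read for a gene that the line lacks, and the fold values above and below are those of the reads. The reads of CDKN2A gave a log2 change in induced cells of −0.84 ± 0.38 against driver cells (limma adjusted p = 0.119). Against non-induced cells it was −0.38 ± 0.38 (adjusted p = 0.520). Neither passed, but the first is close in size to the change of MTSS1 against driver cells, in the opposite direction. The part of late reads in the differences of MTSS1 was not tested. Against driver cells, MTSS1 in non-induced cells was 1.79-fold lower (log2 change −0.84 ± 0.25, 95% interval −1.38 to −0.30, adjusted p = 0.0538). Between the controls limma called 0 of the 6 genes, against 7.06% of 85 genes tested, and 1 of the 6, MTSS1, had an unadjusted p of 0.00569 from limma. MTSS1 was called lower in non-induced than in driver cells with B2M alone (adjusted p = 0.0278), with 5 normalization genes (0.0318), with the plate median (0.00426) and with only the plates compared (0.0396), and the last of these without moderation called 0. The 2 controls did not overlap for NME1, MTSS1 and MTA1, which is 3 of 6 genes against 50.6% of all genes tested.

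The 2 suppressors with a call moved in opposite directions. The Ct of NME1 minus the Ct of MTSS1 was −11.39 and −11.11 cycles in driver cells, −12.49 and −12.16 in non-induced cells, and −9.42 and −9.75 in induced cells. The RNA of MTSS1 relative to NME1 was 4.60-fold higher in induced cells than in both controls, 3.17-fold against driver cells and 6.68-fold against non-induced cells, as ratios of reads whose MTSS1 controls lie in the Ct range of CDKN2A. The difference against both controls gave an exact permutation p of 0.0667, the smallest that 2 plates against 4 allow.

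HTATIP2 read higher on both induced plates than on any control plate but did not pass the test under the main settings. Its ΔCt was 2.86 and 3.25 in driver cells, 2.92 and 2.96 in non-induced cells, and 2.32 and 2.70 in induced cells. The highest induced ΔCt lay 0.16 cycles from the lowest control value, less than the gap between the 2 induced plates. The log2 change was 0.55 ± 0.26 against driver cells (95% interval −0.02 to 1.11, adjusted p = 0.129), 0.43 ± 0.26 against non-induced cells (adjusted p = 0.254) and 0.49 ± 0.22 against both controls (unadjusted p = 0.0495, adjusted p = 0.136). HTATIP2 was called higher with a trend in the moderation against driver cells (adjusted p = 0.0401) and against both controls (adjusted p = 0.0356), and with the plate median against non-induced cells (adjusted p = 0.0434). Within run 2 alone the log2 change was 0.16 against driver cells, and with the run as a block in the fit it was 0.24. The controls differed from each other by 0.11 ± 0.26 (adjusted p = 0.821).

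**Figure D2:**
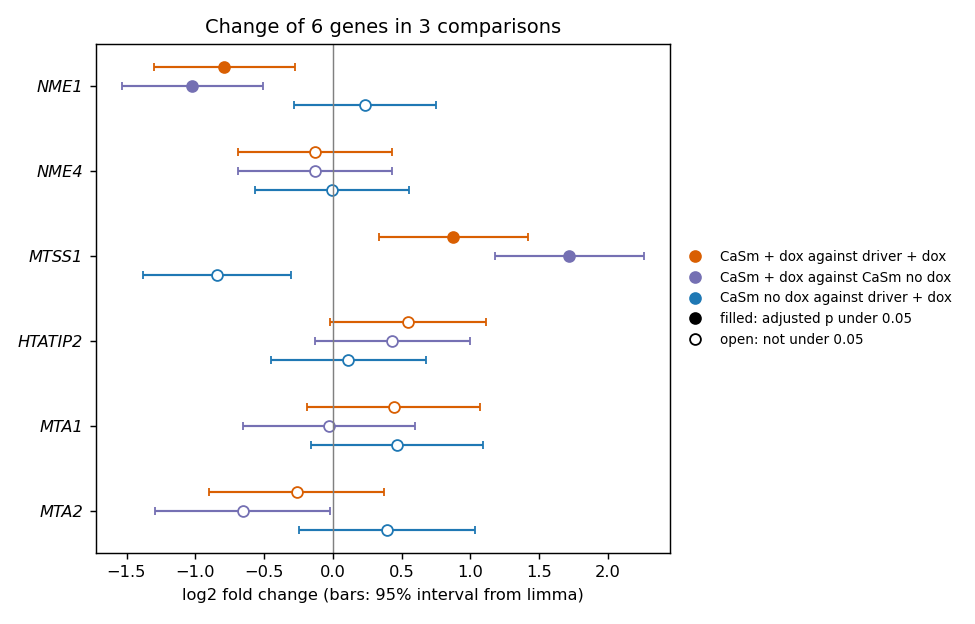
Log2 change of the 6 genes in 3 comparisons (induced with driver cells, induced with non-induced cells and non-induced with driver cells) with 95% intervals from limma over 6 plates. Filled points have an adjusted p under 0.05, which holds only for NME1 and MTSS1 in the comparisons with induced cells; the interval of MTSS1 between the controls lies below 0 although its adjusted p is 0.0538.

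Neither MTA gene passed the test. The ΔCt of MTA1 was 3.64 and 4.22 in driver cells, 3.39 and 3.53 in non-induced cells, and 3.23 and 3.75 in induced cells. The induced plates overlapped with both controls. The log2 change was 0.44 ± 0.28 against driver cells (95% interval −0.18 to 1.07, adjusted p = 0.294) and −0.03 ± 0.28 against non-induced cells (95% interval −0.65 to 0.60, adjusted p = 0.970). Within run 2 it was −0.11 against driver cells, and the driver plates themselves were 0.58 cycles apart.

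The ΔCt of MTA2 was 4.98 and 5.67 in driver cells, 4.83 and 5.03 in non-induced cells, and 5.38 and 5.80 in induced cells. RNA was lower on both induced plates than on both non-induced plates, and driver replicate 3 lay inside the induced range. The log2 change was −0.66 ± 0.29 against non-induced cells (95% interval −1.30 to −0.02, unadjusted p = 0.0448, adjusted p = 0.134) and −0.26 ± 0.29 against driver cells (95% interval −0.90 to 0.38, adjusted p = 0.581). Within run 2 alone it was −0.82 against driver cells.

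Read within each plate, the difference between the 2 MTA genes set the induced plates apart from all 4 control plates, which neither gene did on its own, and the 2 controls overlapped. The Ct of MTA1 minus the Ct of MTA2 was −1.34 and −1.45 cycles in driver cells, −1.44 and −1.50 in non-induced cells, and −2.15 and −2.05 in induced cells. The 4 control plates spanned 0.16 cycles, and the induced plates lay at least 0.55 cycles beyond them. The RNA of MTA1 relative to MTA2 was 1.59-fold higher in induced cells than in both controls, 1.63-fold against driver cells and 1.55-fold against non-induced cells. The exact permutation p against both controls was 0.0667, the smallest possible. Over all pairs of genes, 51.8% set the induced plates apart from the 4 control plates in this way. A ratio within a plate also does not show which of 2 genes changed. The Ct of HTATIP2 minus the Ct of MTA1 was −0.78 and −0.97 in driver cells, −0.47 and −0.57 in non-induced cells, and −0.91 and −1.05 in induced cells. The induced plates overlapped with the driver plates but not with the non-induced plates (exact permutation p = 0.2 against both controls). For this pair the 2 controls did not overlap, and the 4 control plates spanned 0.5 cycles.

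**Figure D3:**
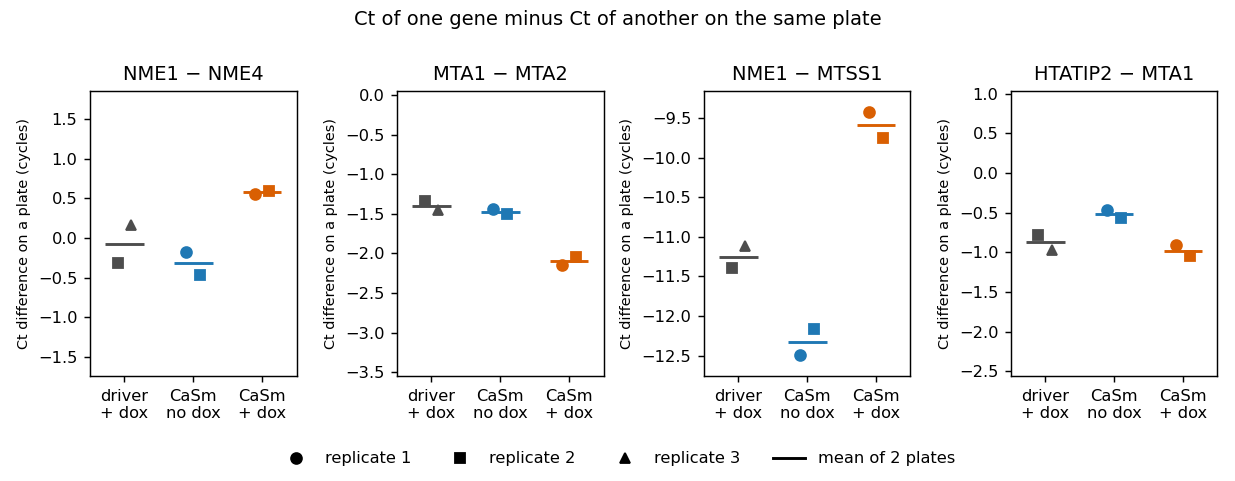
Difference in Ct between 2 genes read on the same plate, in PCR cycles, for 4 pairs, where no normalizing gene enters. Points are plates, marked by replicate number, and lines are means of 2 plates; induced plates stand apart from all 4 control plates for NME1 minus NME4, MTA1 minus MTA2 and NME1 minus MTSS1, and not for HTATIP2 minus MTA1, while 51.8% of all pairs of genes stand apart in this way.

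The direction for NME4 and MTA1 depended on the normalizing gene against either control, and that for MTA2 against driver cells. B2M had a mean Ct of 20.06 on the induced plates, 20.73 on the driver plates and 20.76 on the non-induced plates, and GAPDH had 18.18, 17.99 and 18.15. With B2M alone, the median log2 change of all genes tested moved by −0.47 against driver cells and by −0.40 against non-induced cells, and with GAPDH alone by 0.39 and 0.34. The plate median moved it by −0.25 and 0.30. Since another normalizer adds the same number to every gene, the order of the 6 genes stayed as it was. The log2 change against driver cells ranged over these normalizers from −1.26 to −0.40 for NME1, from 0.41 to 1.27 for MTSS1 and from 0.08 to 0.94 for HTATIP2, and none of these 3 changed direction against either control. It crossed 0 for NME4 (−0.60 to 0.26), MTA1 (−0.03 to 0.84) and MTA2 (−0.73 to 0.13). Against non-induced cells MTA2 stayed below 0 (−1.06 to −0.32) and was called lower with B2M alone (adjusted p = 0.00721). With B2M alone MTA2 was called lower and MTSS1 was not called against driver cells, and with GAPDH alone MTSS1, HTATIP2 and MTA1 were called higher and NME1 was not called. Over all genes, 9 were called higher and 11 lower against driver cells, which became 7 and 37 with B2M alone, 24 and 5 with GAPDH alone and 7 and 4 with HPRT1 alone. Against non-induced cells, 6 were called higher and 15 lower, which became 2 and 40 with B2M alone, 11 and 4 with GAPDH alone and 13 and 9 with the plate median.

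**Figure D4:**
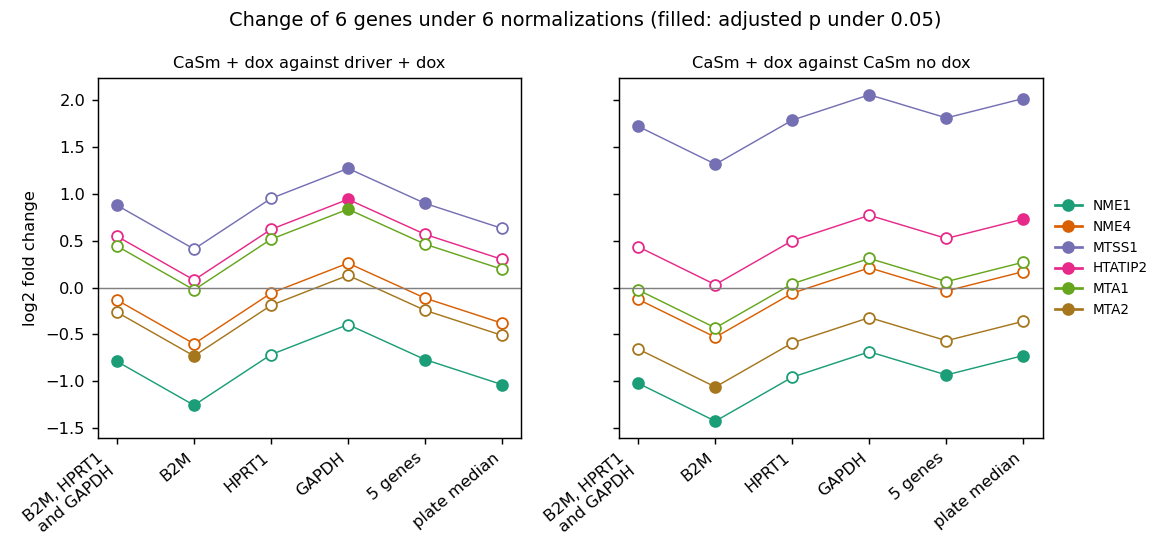
Log2 change of the 6 genes against driver cells (left) and against non-induced cells (right) under 6 ways of normalizing the plates, with filled points where the adjusted p from limma was under 0.05. NME1 stays below 0 and MTSS1 and HTATIP2 stay above 0 under all 6, while NME4, MTA1 and MTA2 cross 0 in the comparison with driver cells.

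The other invasion and metastasis genes of the array are a list of 15, of which 14 could be tested against driver cells. Of these, 2 were called higher and 2 lower, while 23.5% of all 85 genes tested passed. MMP1, a collagenase, rose (log2 change 0.85 ± 0.26, adjusted p = 0.0384), as did PLAUR, the urokinase receptor (log2 change 1.54 ± 0.25, adjusted p = 0.00147). SERPINB5 (maspin), itself a suppressor of invasion, fell (log2 change −0.82 ± 0.26, adjusted p = 0.0428), and 1 of the 3 suppressors on that list was called. MMP1 and SERPINB5 were read late, at mean Ct values of 31.8 and 33.1. Among suppressors with a call against driver cells, NME1 and SERPINB5 were lower and MTSS1 was higher. Against non-induced cells 2 of 13 were called, 1 higher and 1 lower, while 25.3% of all 83 genes tested passed. SERPINB5 was at 0.11 ± 0.26 against non-induced cells (adjusted p = 0.803). PLAUR did not pass against non-induced cells either (0.38 ± 0.25, adjusted p = 0.290). It was already called higher in non-induced than in driver cells (1.16 ± 0.25, adjusted p = 0.0236). SERPINB5 already read lower in non-induced than in driver cells, without a call (−0.94 ± 0.26, adjusted p = 0.0538). The median log2 change of the list was −0.07 against driver cells and −0.06 against non-induced cells. That of all genes tested was −0.08 and −0.21. The count of 4 against driver cells fell to 1 without driver replicate 2 or 3, non-induced replicate 1 or 2 or induced replicate 1, and to 2 without induced replicate 2. The count of 2 against non-induced cells fell to 0 without non-induced replicate 1, and to 1 without non-induced replicate 2, driver replicate 2 or driver replicate 3.

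Likeness across the 6 plates was described by Pearson's r of −ΔCt with each of 70 other genes. These plates share their normalizing genes and fall into 3 conditions, so r is given as a description. ITGA2, an integrin subunit, was among the 2 genes most like NME1 (r = 0.97), and it fell too (log2 change −0.87 against driver cells, adjusted p = 0.029, and −0.92 against non-induced cells, adjusted p = 0.0261). MTSS1 was most like MMP1 (r = 0.82) and TGFBR1 (r = 0.74). HTATIP2 was most like ITGB3 (r = 0.96), which rose against driver cells (log2 change 1.14, adjusted p = 0.0199), and ATM (r = 0.95). MTA1 was most like CFLAR (r = 0.99) and PDGFA (r = 0.95), and MTA2 most like ERBB2 (r = 0.96) and MCAM (r = 0.96). NME4 was most like ITGB5 (r = 0.79) and CDK4 (r = 0.75).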

How the data were processed

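RNA was measured with SYBR Green on a PCR array on 6 plates, and the authors deposited unnormalized Ct values per gene and plate. The rule for setting the threshold is not given in the sources used here. A second deposited table holds the authors' own fold changes (ΔΔCt method with B2M, HPRT1 and GAPDH) and was not used. Plates were grouped from their labels. Here Ct values above 35 were set to 35, and ΔCt was taken against the plate mean of the same 3 genes. The model, run with limma 3.58.1 (R 4.3.3), had −ΔCt as response, a mean for each of the 3 conditions, all 6 plates and hence 3 residual degrees of freedom. Variances were moderated by empirical Bayes, p-values were adjusted by Benjamini-Hochberg over all genes tested, and the threshold was 0.05. Genes at 35 on every plate compared were left out. The fit was tested on simulated data with independent noise of equal spread for all genes and no shift of a plate or normalizing gene. The planted changes were larger than those read for NME1 and MTSS1 against driver cells, so smaller changes and such shifts were not covered. The number of plates limits the precision. Python 3.11.15 was used for the rest. The 6 genes and the list of 15 were chosen with earlier results of these data known; named genes are the 6, the genes of the list with a call, the 2 most alike genes, and MYC, ETS2 and the marker genes. Of the gene names, 88 matched a RefSeq symbol and 1 a synonym. The values of 1 gene of the list are not reported here. Alternatives covered the normalizing genes, the Ct limit, a filter on late genes, the plates in the fit, a run block, the moderation, linear averaging, single runs and each plate left out.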

Additional observations from a re-analysis of the deposited data

How the results depend on the processing

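The directions of NME1, MTSS1 and HTATIP2 in the comparisons with induced cells were kept under every alternative that gave a value. Calls of NME1 and MTSS1 were lost under some alternatives, and HTATIP2, without a call under the main settings, gained one in 2 of 12 alternatives against driver cells, 1 of 12 against non-induced cells and 2 of 11 against both controls. Each condition has 2 plates, so the precision is limited by 3 residual degrees of freedom. The counts of alternatives in this paragraph do not include the fits with a plate left out, which are described apart. Against driver cells, NME1 was called in 5 of 12 alternatives (adjusted p up to 0.389) and MTSS1 in 2 of 11 (up to 0.195). Against non-induced cells, NME1 was called in 9 of 12 (up to 0.232) and MTSS1 in 10 of 11 (up to 0.246). Against both controls, NME1 was called in 10 of 11 (up to 0.169) and MTSS1 in 8 of 10 (up to 0.0568).

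The number of the 6 genes with a call against driver cells was 0, not 2, with a Ct limit of 40 or with HPRT1 alone. It was also 0 with only the plates compared, without moderation, and with only the plates compared and no moderation. The last of these is the unpaired t-test that the paper's methods name, except that p-values were adjusted here over all genes tested. The methods state no such adjustment, and unadjusted values of that test are not given here. The number called was 1 with the plate median and 1 when genes with a mean Ct of 30 or more were left out, which removes MTSS1 from the test. With each plate left out in turn it was 0 to 1. Against non-induced cells it was 1, not 2, with HPRT1 alone, with GAPDH alone and with only genes of a mean Ct under 30, 0 with only the plates compared and no moderation, and 1 to 2 with each plate left out. Against both controls it was 4 with B2M alone. Over all genes tested, that setting called 57 against both controls, 8 higher and 49 lower, while the main settings called 19 of 85. The number of the 6 genes called against both controls was 1 with only genes of a mean Ct under 30. It was also 1 without moderation, and with only the plates compared and no moderation. Between the controls it was 1, not 0, with B2M alone, 5 normalization genes, the plate median and only the plates compared, and 0 to 1 with each plate left out; the gene called was MTSS1. Apart from the missing gene above, the cause was not tested.

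Against driver cells, the log2 fold change reversed to 0.26 for NME4 and 0.13 for MTA2 with GAPDH alone and to −0.025 for MTA1 with B2M alone, and with each plate left out it ran from −0.28 to 0.015 for NME4 and from −0.61 to 0.083 for MTA2. Against non-induced cells, it reversed for NME4 to 0.21 with GAPDH alone and 0.17 with the plate median, and for MTA1 to 0.04 with HPRT1 alone, 0.31 with GAPDH alone, 0.063 with 5 normalization genes and 0.27 with the plate median. With plates left out it ran from −0.35 to 0.092 for NME4 and from −0.29 to 0.23 for MTA1. Against both controls, it reversed to 0.24 for NME4 with GAPDH alone and to −0.23 for MTA1 with B2M alone, and MTA1 ran from −0.053 to 0.47 with plates left out. Between the controls, it reversed with the plate median to −0.31 for NME1, −0.43 for HTATIP2, −0.075 for MTA1 and −0.15 for MTA2, and with GAPDH alone to 0.05 for NME4. With plates left out it ran from −0.23 to 0.21 for NME4 and from −0.083 to 0.31 for HTATIP2. None of these values had a call. The within-plate differences of the 4 pairs kept their sign in every alternative that gave a value other than 0.

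The run numbers were not taken to pair the plates: across 76 genes, the deviations of induced and non-induced plates of the same run had r = −0.17, a measure that leaves out a shift common to all genes and the driver plates. With the run as a replicate block, 0 of the 6 genes were called against driver cells, and the log2 fold change turned to −0.017 for MTA1 against driver cells, −0.022 for MTA1 against both controls, and, between the controls, 0.03 for NME4, −0.19 for HTATIP2 and −0.11 for MTA2. With the crossed pairing of these plates, chosen after seeing the data, 2 of the 6 genes were called against non-induced cells.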
